A study of Mus musculus with 10 samples.

Results

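The genes described here encode the enzymes that make, use and recycle glutathione, together with the superoxide dismutases, catalase and a small set of genes induced under oxidative stress. They were chosen by symbol. All protein-coding mouse genes named Gsta, Gstk, Gstm, Gsto, Gstp, Gstt or Gpx with a number were taken, with Gclc, Gclm, Gsr, Gss, Nqo1, Hmox1, Txnrd1, Srxn1, Sod1, Sod2, Sod3, Cat and Nfe2l2 added by name. This gave 42 genes of the 47069 listed per tumour, namely 21 glutathione transferases, 8 glutathione peroxidases, 4 enzymes of glutathione synthesis and reduction, 4 dismutases or catalase, and 5 genes grouped here as NRF2 and inducible enzymes. A filter on low counts kept 40 of them and removed Gsta2 and Gstm3.

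RNA was sequenced from 10 tumours that grew after cells of a prostate cancer line of mice were placed in an anterior prostate lobe of male mice of the CD-1 Nude strain, in which no normal thymus forms and which keep macrophages, neutrophils and other host cells. The line P1 (n = 3) was derived from a prostate tumour of a donor aged 14 months. The lines CP1 (n = 3) and CP2 (n = 4) were derived from prostate tumours of donors aged 6 and 8 months that carried Ctnnb1 with exon 3 deleted on 1 allele, a change known to stabilise beta-catenin. The labels mark the alleles as pc and do not say which promoter or Cre made the deletion. The donors of P1 differ from those of CP1 and CP2 in more than this exon, each line is a single derivation expanded in culture, and genotype, donor age and line change together, so these cannot be told apart. No label ties a library to its own mouse, so p-values speak of the spread among these libraries, part of which may be technical.

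Glutathione is a tripeptide made in sequence by glutamate-cysteine ligase, whose catalytic and modifier subunits are Gclc and Gclm, and by glutathione synthetase (Gss). Peroxidases spend it on hydrogen peroxide and lipid peroxides, transferases attach it to reactive compounds, and glutathione reductase (Gsr) restores the oxidised form with NADPH. NRF2, encoded by Nfe2l2, is the transcription factor best known for inducing many of these genes through the antioxidant response element (ARE), and prostate epithelium is a tissue in which loss of a pi-class transferase is a well-known feature of cancer in humans.

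Libraries held 18800912 to 37180721 counts, and levels are given as CPM (counts-per-million, after TMM scaling), on which a count of 3 lies at 0.0924 to 0.154. Ctnnb1 itself was at 1798 to 1953 CPM in P1, 917 to 1172 in CP1 and 937 to 1044 in CP2; counts summed over a whole gene do not check the loss of 1 exon. A list of 8 luminal epithelial markers summed to 9434 to 18991 CPM in P1, 804 to 1553 in CP1 and 273 to 495 in CP2, and all 8 were detected in each line. A list of 14 seminal vesicle and secretory prostate genes took 15.2%, 6.87% and 2.02% of the counts of P1 replicates 1, 2 and 3, against at most 0.17% in any CP tumour. The 5 uroplakin genes, markers of urothelium, summed to 53.1, 1245 and 505 CPM in CP1 replicates 1, 2 and 3, against 23.4 to 48.3 in P1 and 2.14 to 10.8 in CP2. They are part of a urothelium list of 7 genes, which also holds Snx31 and Krt20. That list summed to 61.4, 1369.8 and 560.1 CPM in CP1 replicates 1, 2 and 3, 182 to 388 in P1 and 2.75 to 11.5 in CP2. Krt20 went the other way, at 134 to 353 CPM in P1 and 3.0 to 18.8 in CP1. Counts below are therefore also given without P1 replicates 1 and 2 and without CP1 replicates 2 and 3, fits that leave 1 tumour in that line and assume that it varies like the others. The title of CP2 replicate 1 names CP1 although its other labels give CP2; across genes its log2(CPM + 1) had a mean correlation of 0.991 with the other CP2 tumours and 0.931 with CP1.

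Promoter sequence is shown for 4 genes on which the results below turn: Gclm and Gsta3, which were low in CP2 and hold a match to the ARE core, and Gpx2 and Nqo1, which were nearly absent from CP2 or high in some CP1 tumours and hold none in this window. Each line gives the 250 bases before the annotated start, 5′ to 3′ on the gene's strand, from RefSeq (GRCm38.p6). Capitals mark a match to the ARE core TGACNNNGC, searched on both strands; the AP-1 motif TGANTCA, searched in the same way, can lie inside such a match. The stretches are Gclm chr3:122245307-122245556 (plus strand), Gsta3 chr1:21240335-21240584 (plus), Gpx2 chr12:76795555-76795804 (minus) and Nqo1 chr8:107403206-107403455 (minus).
Gclm: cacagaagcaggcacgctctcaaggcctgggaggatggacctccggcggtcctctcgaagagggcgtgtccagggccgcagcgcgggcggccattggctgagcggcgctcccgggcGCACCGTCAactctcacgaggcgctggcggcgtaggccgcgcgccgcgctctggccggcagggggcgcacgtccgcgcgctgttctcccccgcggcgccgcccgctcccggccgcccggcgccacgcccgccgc
Gsta3: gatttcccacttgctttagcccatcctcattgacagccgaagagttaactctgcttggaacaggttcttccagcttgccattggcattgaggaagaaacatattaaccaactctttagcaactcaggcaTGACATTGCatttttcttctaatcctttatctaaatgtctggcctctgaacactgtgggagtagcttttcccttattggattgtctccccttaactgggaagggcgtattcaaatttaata
Gpx2: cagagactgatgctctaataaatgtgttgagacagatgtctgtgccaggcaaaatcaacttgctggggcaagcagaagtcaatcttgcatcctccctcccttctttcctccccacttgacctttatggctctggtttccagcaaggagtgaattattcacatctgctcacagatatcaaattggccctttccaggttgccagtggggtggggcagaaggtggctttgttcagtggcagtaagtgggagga
Nqo1: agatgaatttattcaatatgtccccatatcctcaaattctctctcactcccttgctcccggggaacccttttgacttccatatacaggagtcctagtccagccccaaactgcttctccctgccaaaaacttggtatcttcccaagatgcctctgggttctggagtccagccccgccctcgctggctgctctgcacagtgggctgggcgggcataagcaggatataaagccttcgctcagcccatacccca
The Gclm match begins at position -134 on the strand opposite to the gene and the Gsta3 match at -121 on the gene's own strand. Over the 300-base windows (250 before and 50 after the start), the ARE core was found in 8 of 48 promoters of the members (16.7%), against 12.4% of all 32851 promoters in the table. AP-1 was found in 4 of the 48 (8.33%) against 7.81%, and the TCF/LEF motif CTTTGAT in 0 of the 48 against 3.73%. RefSeq promoters were at hand for 36 of the 42 genes, and not for Gclc, Gsr, Gsta4, Gstt2, Hmox1 and Sod3. The ARE core was also found for Gstm5, Gstm7, Nfe2l2, Sod1, Srxn1 and Txnrd1. In CP2 versus P1, by the rule given below, Txnrd1 was called higher and Gstm5, Nfe2l2 and Sod1 lower. Gstm7 and Srxn1 were not called. In that comparison 28.3% of all tested genes were called higher and 28.4% lower. A match describes letters in this window only.

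More of the genes were called lower than higher in CP2 against each other line, while CP1 versus P1 had as many calls in each direction. Every adjusted p below is from edgeR's quasi-likelihood test with Benjamini-Hochberg adjustment over all 17644 genes tested, fold changes are log2 with their standard error (SE), and a gene was called at an adjusted p below 0.05. In CP2 versus P1, 23 of the 40 tested members were called lower (57.5%) and 7 higher (17.5%), 30 in all, where 56.7% of all tested genes were called in either direction, 28.4% lower and 28.3% higher. In CP2 versus CP1, 25 were called lower (62.5%) and 3 higher (7.50%), against 21.9% and 21.3% of all genes and 43.3% in either direction. In CP1 versus P1, 13 were called lower and 13 higher (32.5% each), against 22.4% of all genes in each direction and 44.8% in either.

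Median log2 differences over the 40 tested members were -0.17 in CP1 versus P1, -0.69 in CP2 versus P1 and -0.92 in CP2 versus CP1, where the medians of all tested genes were -0.01, 0.0 and -0.01. The lower calls of CP2 versus P1 numbered 22 without P1 replicates 1 and 2 and 22 without CP1 replicates 2 and 3, fits in which 25.1% and 28.0% of all genes were called lower. The lower calls of CP2 versus CP1 numbered 13 without CP1 replicates 2 and 3 and 26 without P1 replicates 1 and 2, where the share of all genes called lower went from 21.9% to 11.0% and 24.4%. The higher calls of CP1 versus P1 numbered 7 and 8 in these fits, where the share of all genes called higher went from 22.4% to 15.2% and 19.5%. Calls were thus lost among all genes as well as among the members. Without P1 replicate 3 the 3 higher calls of CP2 versus CP1 became 5, and the share of all genes went from 21.3% to 23.6%. In a test that asks for more than a 2-fold change, 16 members were called lower in CP2 versus P1 and 1 higher, against 11.9% and 8.07% of all genes and 19.9% in either direction. That test called 11 lower and 1 higher in CP2 versus CP1 (5.41% and 4.86% of all genes, 10.3% in either direction), and 5 lower and 8 higher in CP1 versus P1 (8.60% and 6.50%, and 15.1% in either). Each pair of these comparisons shares the tumours of 1 line, so their counts are not independent. In bulk tumours, fewer cells of a type and less RNA per cell cannot be told apart.

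**Figure D1:**
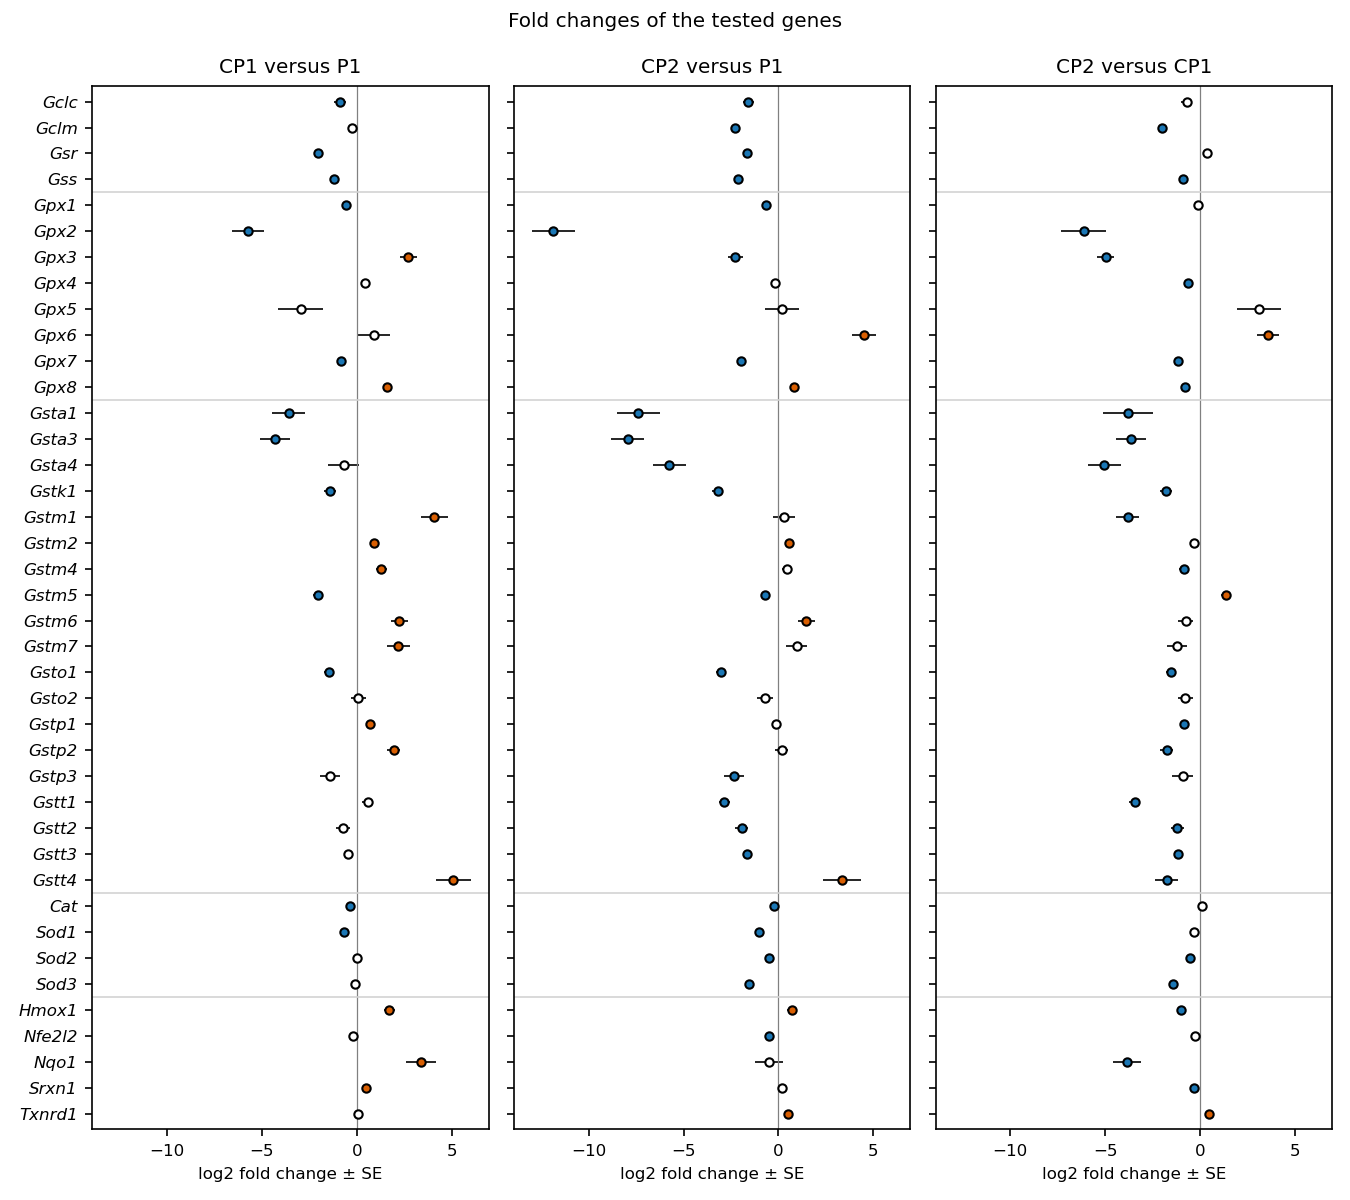
Log2 fold change (x axis) with its SE for each of the 40 tested genes (y axis, grouped by role), in CP1 versus P1, CP2 versus P1 and CP2 versus CP1 from left to right; filled points were called (orange higher, blue lower) and open points were not. Most filled points of the middle and right panels lie left of 0, while CP1 versus P1 has 13 on each side.

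All 4 genes of glutathione synthesis and reduction were called lower in CP2 versus P1, as were 28.4% of all tested genes. Gclm and Gss were called lower in CP2 versus CP1 as well. Gclm, the modifier subunit of the rate-limiting ligase (ENSMUSG00000028124, GRCm38 chr3:122245557-122270732), was at 164, 186 and 163 CPM in P1, at 146, 159 and 128 in CP1, and at 38.2, 36.8, 32.1 and 33.9 in CP2. No CP2 tumour came near the other lines, and P1 and CP1 did not overlap either, although that pair was not called. Gclm fell by 2.28 ± 0.10 from P1 to CP2 (adjusted p = 3.445e-07) and by 2.03 ± 0.10 from CP1 to CP2 (adjusted p = 2.067e-06).

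Gclc, the catalytic subunit, was at 139, 169 and 134 CPM in P1, at 43.6, 113 and 83.2 in CP1, and at 66.9, 51.5, 39.3 and 39.7 in CP2. All P1 tumours lay above all CP tumours, and CP1 replicate 1 lay within the CP2 range. It fell by 1.58 ± 0.29 in CP2 versus P1 (adjusted p = 0.0012) and by 0.88 ± 0.31 in CP1 versus P1 (adjusted p = 0.043). The second call was lost in 10 of 17 alternatives, with an adjusted p of 0.0507 to 0.224; they include the removal of any P1 tumour, of CP1 replicate 1 or 3, or of CP2 replicate 2, 3 or 4. Without CP1 replicates 2 and 3 the change was -1.75 (adjusted p = 0.0048).

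Gss, which adds glycine in the last step, was at 119, 133 and 193 CPM in P1, at 62.3, 66.2 and 63.2 in CP1, and at 30.9, 35.5, 36.0 and 32.6 in CP2. The 3 lines did not overlap and stood in that order. Its change from P1 was a log2 change of -1.21 ± 0.16 in CP1 (adjusted p = 1.926e-04) and of -2.13 ± 0.15 in CP2 (adjusted p = 2.711e-06), and CP2 lay below CP1 by a log2 change of -0.92 ± 0.15 (adjusted p = 8.675e-04). Other genes on the opposite strand, Acss2 among them, cover 15.4% of its exons; the sources used here do not say if reads were counted by strand.

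Gsr, the NADPH-dependent reductase, was at 279.6, 293 and 348 CPM in P1, at 59.5, 88.3 and 77.3 in CP1, and at 100.2, 98.9, 96.3 and 86.7 in CP2. Both CP lines lay far below P1 and overlapped with each other. The log2 change from P1 was -2.03 ± 0.15 in CP1 (adjusted p = 5.693e-06) and -1.68 ± 0.13 in CP2 (adjusted p = 6.110e-06). Of the 4 genes of this role, CP1 versus P1 called 3 lower and 0 higher, and CP2 versus CP1 called 2 lower and 0 higher. All-gene shares were 22.4% in each direction in the first comparison, and 21.9% lower and 21.3% higher in the second.

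**Figure D2:**
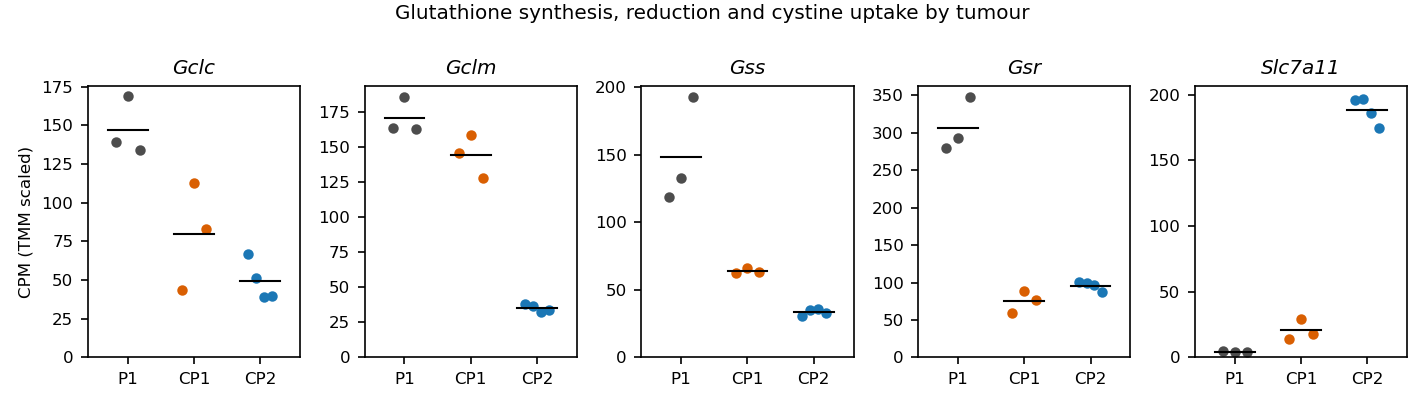
CPM (y axis, linear, a scale per panel) of Gclc, Gclm, Gss, Gsr and the cystine transporter gene Slc7a11 in each tumour (points) of P1, CP1 and CP2 (x axis), with the mean of each line as a bar. The 4 synthesis and reduction genes are highest in P1, while Slc7a11 rises from 3.9 to 4.59 CPM in P1 to 175 to 197 CPM in CP2.

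Of the glutathione peroxidases, Gpx2 was high in P1 and Gpx3 was high in CP1. Gpx2, the peroxidase best known from gut epithelium (ENSMUSG00000042808, chr12:76792333-76795554), was at 185, 353 and 585 CPM in P1, at 1.27, 15.6 and 4.25 in CP1, and at 0, 0.344, 0.0456 and 0 in CP2. The lines did not overlap, and the 4 CP2 libraries together held 8 counts. In log2 terms it changed by -5.72 ± 0.86 in CP1 versus P1 (adjusted p = 4.439e-04), -11.85 ± 1.13 in CP2 versus P1 (adjusted p = 1.701e-05) and -6.14 ± 1.18 in CP2 versus CP1 (adjusted p = 0.0024). At 8 counts the size of the last 2 rests on few reads, and without CP1 replicates 2 and 3 the change between the CP lines was -3.66 with an adjusted p of 0.0571. The CP1 versus P1 change was -8.19 in that fit and -7.09 without CP1 replicate 2 alone, which put the change between the CP lines at -4.76. Without CP2 replicate 2, which held 7 of the 8 counts, CP2 lay at -14.15 against P1 and -8.43 against CP1.

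Gpx3, the secreted plasma peroxidase (ENSMUSG00000018339, chr11:54902453-54910377), was at 364, 327 and 193 CPM in P1, at 1284, 2668 and 1782 in CP1, and at 108, 40.3, 37.0 and 57.8 in CP2. No line overlapped with another. It was the only tested member called in opposite directions against P1, with log2 changes of 2.7 ± 0.45 in CP1 (adjusted p = 8.655e-04) and -2.27 ± 0.40 in CP2 (adjusted p = 9.078e-04). The CP lines differed by -4.97 ± 0.45 (adjusted p = 3.011e-05), and by -4.40 without CP1 replicates 2 and 3. A list of 10 fibroblast markers summed to 15284 to 23751 CPM in CP1, 5162 to 9893 in P1 and 8218 to 10123 in CP2, mostly from Col1a1, Col1a2 and Col3a1. The 10 went both ways: CP1 versus P1 called 3 higher and 1 lower (22.4% of all genes in each direction). CP2 versus CP1 called 3 of them higher and 4 lower (21.3% and 21.9% of all genes). The part of fibroblasts in the Gpx3 result was not tested.

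Gpx8, a peroxidase of the endoplasmic reticulum, was at 33.9, 24.9 and 25.4 CPM in P1, at 101, 88.2 and 67.9 in CP1, and at 45.6, 46.5, 50.4 and 54.9 in CP2. The 3 lines did not overlap. Against P1 it rose by 1.61 ± 0.17 in the CP1 tumours (adjusted p = 4.510e-05) and by 0.82 ± 0.16 in those of CP2 (adjusted p = 0.0015), and CP2 lay below CP1 (-0.80 ± 0.15, adjusted p = 0.0023). Gpx7, its relative in the same compartment, went the other way, at 14.0, 9.48 and 12.4 CPM in P1, 8.13, 6.62 and 5.75 in CP1, and 3.08, 2.41, 2.6 and 4.19 in CP2. Its log2 change from P1 was -1.96 ± 0.23 in CP2 (adjusted p = 7.250e-05) and -0.81 ± 0.25 in CP1 (adjusted p = 0.0222), and -1.15 ± 0.23 between the CP lines (adjusted p = 0.0032). The CP1 versus P1 call was lost without P1 replicate 1 (adjusted p = 0.0648), CP1 replicate 2 (0.0596) or CP1 replicate 3 (0.0794).

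Gpx1, the abundant cytosolic peroxidase, was at 556, 641 and 945 CPM in P1, at 486, 544 and 408 in CP1, and at 442, 454, 467 and 439 in CP2. P1 lay above both CP lines, which overlapped. The log2 change was -0.66 ± 0.17 in CP2 versus P1 (adjusted p = 0.0080) and -0.57 ± 0.19 in CP1 versus P1 (adjusted p = 0.0287), the second lost without P1 replicate 3 (adjusted p = 0.052), CP1 replicate 1 (0.0545) or CP1 replicate 3 (0.106). Gpx4, which reduces lipid hydroperoxides within membranes and is known for holding back ferroptosis, was at 251, 276 and 414 CPM in P1, at 421, 417 and 437 in CP1, and at 279, 259.7, 272 and 277 in CP2. Its CP1 tumours lay above all others, and it was called in CP2 versus CP1 (-0.64 ± 0.15, adjusted p = 0.0070), though not without CP1 replicates 2 and 3 (adjusted p = 0.0964). Its transcripts share 34.7% of their 50-base stretches with other genes, the copy Gpx4-ps2 among them.

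Gpx5 and Gpx6, known from epididymis and olfactory epithelium, stayed at or below 2.25 CPM in every tumour. Gpx6 was higher in CP2, with 88 counts over its 4 libraries against 4 over the P1 libraries and 7 over the CP1 libraries (log2 4.48 ± 0.63, adjusted p = 2.130e-04, and 3.58 ± 0.58, adjusted p = 9.400e-04). Resting on few counts, these were 5.61 without P1 replicate 1, 7.7 without P1 replicates 1 and 2, 4.27 without CP1 replicate 3 and 4.73 without CP1 replicates 2 and 3, all called. Gpx5 was not called in any contrast. Of the 8 peroxidases, CP1 versus P1 called 3 lower and 2 higher, CP2 versus P1 called 4 lower and 2 higher, and CP2 versus CP1 called 5 lower and 1 higher. In the same order, all-gene shares were 22.4% in each direction, 28.4% lower and 28.3% higher, and 21.9% lower and 21.3% higher.

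**Figure D3:**
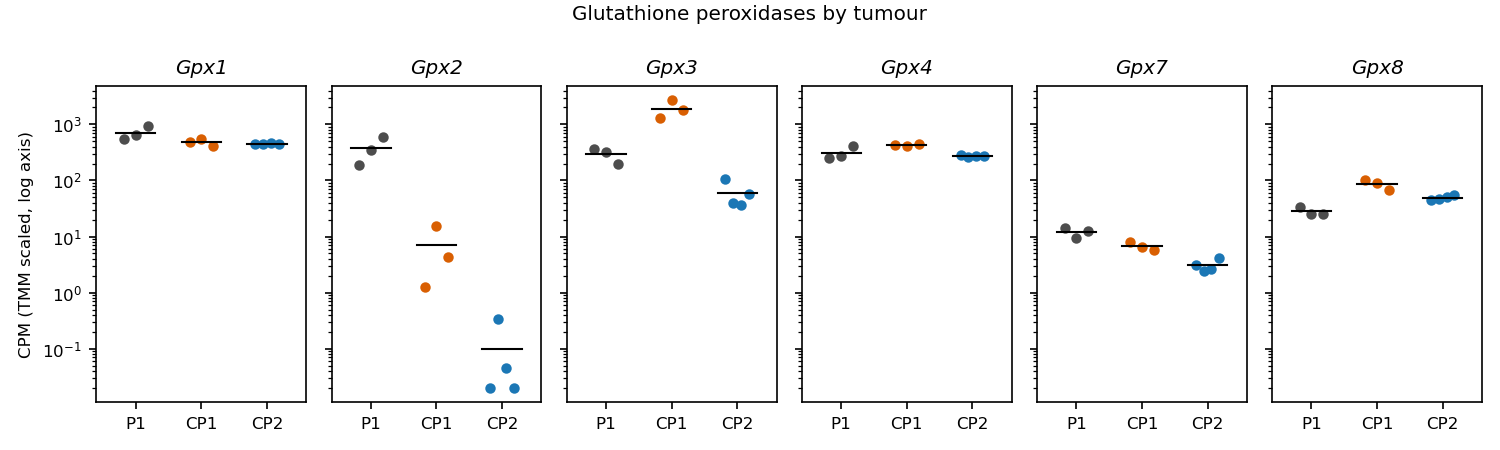
CPM (y axis, log scale shared by the panels) of 6 glutathione peroxidase genes in each tumour (points) of P1, CP1 and CP2 (x axis), with the mean of each line as a bar; the 2 CP2 tumours with 0 counts of Gpx2 are drawn at 0.02. Gpx2 falls from 185 to 585 CPM in P1 to at most 0.344 in CP2, and Gpx3 is highest in CP1.

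Among the glutathione transferases, called genes of the alpha, omega, kappa and theta classes with at least 5 CPM in a line were lower in CP2, while 4 mu-class genes at that level were higher in CP1 than in P1. Gsta3, an alpha-class transferase known in mouse liver for conjugating an aflatoxin metabolite (ENSMUSG00000025934, chr1:21240589-21265661), was at 183, 379 and 432 CPM in P1, at 2.54, 28.2 and 19.8 in CP1, and at 2.72, 0.540, 1.60 and 0.559 in CP2. P1 stood apart from both CP lines, and CP1 replicate 1 lay within the CP2 range. The log2 change was -7.94 ± 0.86 in CP2 versus P1 (adjusted p = 3.895e-05), -4.30 ± 0.79 in CP1 versus P1 (adjusted p = 0.0015) and -3.64 ± 0.78 between the CP lines (adjusted p = 0.0043). Without CP1 replicates 2 and 3 the last was -0.92 (adjusted p = 0.434) and the change from P1 to CP1 was -7.02 (adjusted p = 0.0014); without CP1 replicate 2 alone they were -3.04 and -4.9.

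Gsta4, which detoxifies the lipid peroxidation product 4-hydroxynonenal, was at 149, 273 and 366 CPM in P1, at 13.5, 321 and 149.7 in CP1, and at 7.56, 5.5, 3.7 and 2.84 in CP2. All CP2 tumours lay below all others, and the CP1 tumours ran from near the CP2 level to within the P1 range. The log2 change was -5.75 ± 0.88 in CP2 versus P1 (adjusted p = 3.650e-04) and -5.05 ± 0.86 in CP2 versus CP1 (adjusted p = 0.0012), which became -4.06 without CP1 replicate 2 (adjusted p = 0.0038) and -1.47 without CP1 replicates 2 and 3 (adjusted p = 0.0765).

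Gsto1, an omega-class enzyme that reduces dehydroascorbate, was at 249.6, 315 and 498 CPM in P1, at 96.6, 158 and 127 in CP1, and at 48.1, 37.9, 37.9 and 48.2 in CP2. The lines did not overlap. Gsto1 changed by -1.48 ± 0.26 in CP1 versus P1 (adjusted p = 0.0011), by -3.04 ± 0.25 in CP2 versus P1 (adjusted p = 6.600e-06) and by -1.56 ± 0.24 between the CP lines (adjusted p = 6.589e-04). Gstk1, the kappa-class enzyme of mitochondria and peroxisomes, was at 8.75, 5.24 and 5.26 CPM in P1, at 2.26, 2.73 and 2.31 in CP1, and at 0.463, 0.491, 0.867 and 0.931 in CP2. It too fell without overlap, by 1.40 ± 0.31 in CP1 versus P1 (adjusted p = 0.0044), by 3.21 ± 0.31 in CP2 versus P1 (adjusted p = 1.868e-05), and its change from CP1 to CP2 was -1.81 ± 0.31 (adjusted p = 0.0012). Without CP1 replicates 2 and 3 the first of these had an adjusted p of 0.0556.

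Gstt1, of the theta class, was at 34.6, 43.4 and 41.0 CPM in P1, at 94.7, 48.0 and 35.8 in CP1, and at 5.24, 5.25, 5.93 and 5.40 in CP2. The CP2 tumours lay within a narrow range below all others, and P1 and CP1 overlapped. Gstt1 changed by -2.86 ± 0.29 in CP2 versus P1 (adjusted p = 2.278e-05) and -3.45 ± 0.29 in CP2 versus CP1 (adjusted p = 2.169e-05), the latter -4.12 without CP1 replicates 2 and 3.

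Gstt3, its neighbour on chromosome 10, was at 30.6, 49.2 and 41.0 CPM in P1, at 24.1, 35.8 and 28.4 in CP1, and at 15.6, 13.7, 12.5 and 9.78 in CP2. Gstt2, another gene of the locus, was at 9.21, 11.5 and 6.35 CPM in P1, at 2.86, 7.96 and 5.47 in CP1, and at 2.52, 1.62, 2.74 and 2.51 in CP2. For both genes the CP2 tumours lay below all others. Gstt3 changed by -1.64 ± 0.21 in CP2 versus P1 (adjusted p = 1.049e-04) and by -1.19 ± 0.21 in CP2 versus CP1 (adjusted p = 0.0014), the latter with an adjusted p of 0.0517 without CP1 replicates 2 and 3. Gstt2 changed by -1.94 ± 0.35 in CP2 versus P1 (adjusted p = 9.664e-04) and by -1.21 ± 0.35 in CP2 versus CP1 (adjusted p = 0.0188). The last call was lost without CP1 replicates 2 and 3 (adjusted p = 0.636), without CP1 replicate 2 alone (0.09) and without CP2 replicate 2 (0.0519). The 4 theta genes lie within 63.3 kb (chr10:75774115-75837424), and 13.6% of the exons of Gstt3 are shared with another gene on its strand.

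The 7 mu-class genes lie in a row within 149.1 kb (chr3:107895821-108044894), and their called changes went in both directions. Gstm1 was at 45, 60.5 and 36.7 CPM in P1, at 134, 1528 and 752 in CP1, and at 69.5, 60.4, 47.9 and 51.0 in CP2. CP1 lay above every other tumour, with its lowest value in replicate 1, while P1 and CP2 overlapped. Its log2 change was 4.09 ± 0.70 in CP1 versus P1 (adjusted p = 9.424e-04) and -3.82 ± 0.61 in CP2 versus CP1 (adjusted p = 8.677e-04), and without CP1 replicates 2 and 3 these became 1.51 (adjusted p = 0.0036) and -1.24 (adjusted p = 0.0116), and without CP1 replicate 2 alone 3.23 and -2.96.

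Gstm2 was at 72.6, 64.3 and 36.8 CPM in P1, at 84.6, 127 and 117 in CP1, and at 91.6, 83.2, 77.7 and 90.6 in CP2. P1 lay below both CP lines. It rose by 0.92 ± 0.23 in CP1 (adjusted p = 0.0088, and 0.217 without CP1 replicates 2 and 3) and by 0.57 ± 0.22 in CP2 (adjusted p = 0.0479). The CP2 call was lost in 11 of 17 alternatives, with an adjusted p of 0.05 to 0.127, among them the removal of P1 replicate 2 or 3, of CP1 replicate 2 or 3, or of any CP2 tumour. Without P1 replicates 1 and 2 Gstm2 changed by 1.55 in CP1 and 1.19 in CP2. Gstm4 was at 7.83, 8.14 and 7.92 CPM in P1, at 9.96, 26.0 and 22.5 in CP1, and at 9.77, 11.9, 9.99 and 11.6 in CP2. Its log2 change was 1.29 ± 0.29 in CP1 versus P1 (adjusted p = 0.0049) and -0.85 ± 0.27 in CP2 versus CP1 (adjusted p = 0.027). Without CP1 replicates 2 and 3 these were 0.33 (adjusted p = 0.255) and 0.11 (adjusted p = 0.713), so that the second turned direction. It was also lost without CP1 replicate 2 (adjusted p = 0.123), CP1 replicate 3 (0.0904), CP2 replicate 1 (0.0645) or CP2 replicate 3 (0.0654), and the CP1 versus P1 call without P1 replicates 1 and 2 (0.0739).

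Gstm7 was at 2.00, 13.9 and 3.36 CPM in P1, at 23.5, 34.6 and 29.9 in CP1, and at 15.1, 11.1, 8.76 and 14.7 in CP2. CP1 lay above all others, and P1 replicate 2 lay within the CP2 range. It rose by 2.19 ± 0.59 in CP1 versus P1 (adjusted p = 0.0125). The change was 3.43 without P1 replicate 2 (adjusted p = 1.147e-04), 3.1 without P1 replicates 1 and 2 (9.421e-04) and 1.87 without CP1 replicates 2 and 3 (0.119). Gstm5, the neighbour of Gstm7 at the end of the row, went the other way. It was at 22.4, 33.4 and 24.6 CPM in P1, 4.81, 9.13 and 5.51 in CP1, and 17.5, 15.2, 16.5 and 16.4 in CP2. The 3 lines did not overlap, with CP1 lowest. Its log2 change was -2.05 ± 0.24 in CP1 versus P1 (adjusted p = 9.905e-05), 1.34 ± 0.23 in CP2 versus CP1 (adjusted p = 0.0012) and -0.71 ± 0.22 in CP2 versus P1 (adjusted p = 0.0176), the last lost without P1 replicate 2 (adjusted p = 0.0752) and without P1 replicates 1 and 2 (0.121). Antisense genes cover 13.9% of the exons of Gstm5, and 18.9% of the 50-base stretches of Gstm1 occur in other genes.

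Gstp1, the pi-class transferase, was at 38.2, 40.9 and 59.1 CPM in P1, at 63.7, 67.9 and 92.4 in CP1, and at 44.1, 44.9, 37.9 and 38.7 in CP2. CP1 lay above both other lines, which overlapped. It was called in CP2 versus CP1 (-0.85 ± 0.17, adjusted p = 0.0033, and 0.0839 without CP1 replicates 2 and 3) and in CP1 versus P1 (0.70 ± 0.19, adjusted p = 0.0122). The latter was lost in 5 alternatives, with an adjusted p of 0.0515 to 0.298, among them the removal of P1 replicate 1 or of P1 replicate 2. Gstp1 shares 33.7% of its 50-base stretches with other genes, Gstp2 and Gstp-ps among them, so the counts of these copies are uncertain.

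The other 8 transferases stayed below 5 CPM on average in every line. Gsta1 had 422 counts over the P1 libraries, 34 over CP1 and 2 over CP2, which makes P1 higher than CP2 by a ratio of 191 (exact 95% interval 52.6 to 1583, counting error only). Gsta1 shares 90.5% of its 50-base stretches with Gsta2 and 2 predicted genes, so this ratio may hold reads of any of them. Gstt4 had 2 counts in P1, 76 in CP1 and 22 in CP2, a ratio of 41.7 for CP1 over P1 (11.2 to 350.5) and of 12.1 for CP2 over P1 (2.99 to 107). Gstm6 and Gstp2 reached 7.14 and 4.28 CPM in CP1 and were called higher there than in P1 (2.24 ± 0.46, adjusted p = 0.0028, and 1.94 ± 0.36, adjusted p = 0.0015). Without P1 replicates 1 and 2 these had adjusted p-values of 0.0635 and 0.05, and without CP1 replicates 2 and 3 that of Gstm6 was 0.0782, with a change of 1.15. Gstp3 was lower in CP2 than in P1 (-2.34 ± 0.52, adjusted p = 0.0036), Gsto2 was called in no contrast, and Gsta2 and Gstm3, which were not tested, reached at most 0.52 and 0.0936 CPM. Over the 19 tested transferases, CP1 versus P1 called 5 lower and 8 higher, CP2 versus P1 called 10 lower and 3 higher, and CP2 versus CP1 called 13 lower and 1 higher. The shares of all tested genes were 22.4% in each direction, 28.4% lower and 28.3% higher, and 21.9% lower and 21.3% higher.

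**Figure D4:**
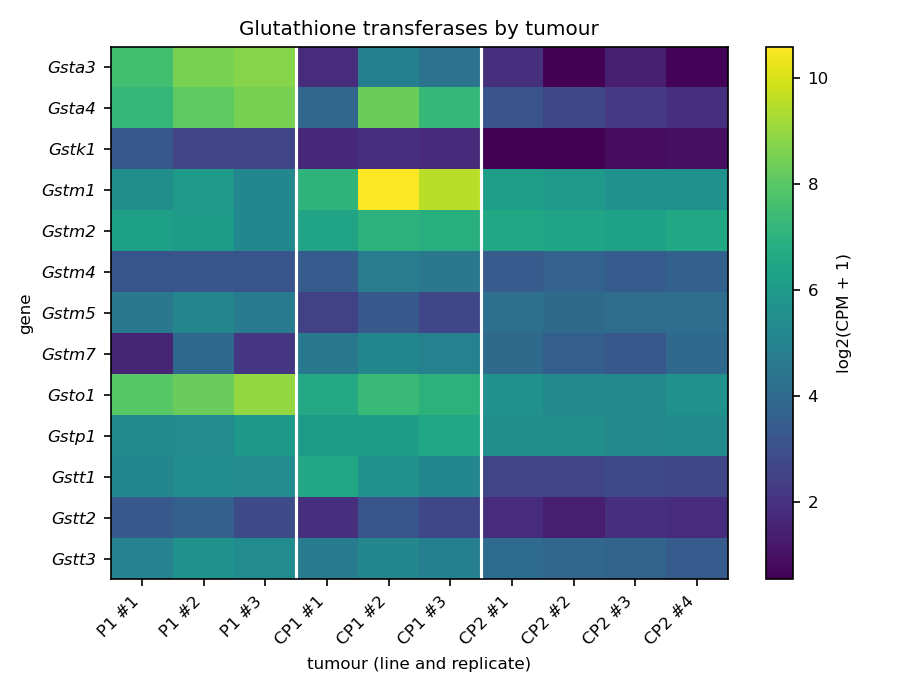
Level of 13 transferase genes that averaged at least 5 CPM in a line, as log2(CPM + 1) by colour, for each gene (y axis) in each tumour (x axis, line and replicate number), with white lines between P1, CP1 and CP2. Gsta3 and Gsta4 are bright in P1 and dark in CP2, Gsto1 is bright in P1 and dimmer in CP2, and Gstm1 is brightest in CP1 replicates 2 and 3.

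All 4 genes of the superoxide dismutases and catalase were called lower in CP2 versus P1, as were 28.4% of all tested genes. Sod3, the extracellular dismutase, was at 38.8, 32.5 and 41.9 CPM in P1, at 39.4, 36.2 and 28.7 in CP1, and at 9.87, 11.5, 16.7 and 12.9 in CP2. CP2 lay below the other lines, which overlapped. In log2 terms Sod3 changed by -1.57 ± 0.18 in CP2 versus P1 (adjusted p = 6.358e-05) and -1.45 ± 0.18 in CP2 versus CP1 (adjusted p = 2.215e-04). A list of 10 smooth muscle markers summed to 690.2 to 1038 CPM in CP2, 1096 to 3218 in P1 and 817 to 5221 in CP1. Of the 10, CP2 versus P1 called 2 higher and 7 lower (28.3% and 28.4% of all genes). CP2 versus CP1 called 0 higher and 8 lower (21.3% and 21.9%). Synpo2 and Mylk were at 120.3 to 196 and 215 to 369.6 CPM in CP2, against 7.05 to 37.8 and 66.5 to 196 in P1. The part of smooth muscle in the Sod3 result was not tested.

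Sod1, the cytosolic copper and zinc dismutase, was at 150.2, 181 and 252 CPM in P1, at 108, 145 and 108 in CP1, and at 100, 92.3, 94.4 and 93.0 in CP2. No line overlapped with another. It fell by 1.03 ± 0.17 in CP2 versus P1 (adjusted p = 5.402e-04) and by 0.69 ± 0.18 in CP1 versus P1 (adjusted p = 0.0113). Sod2, the mitochondrial manganese dismutase, was at 67.2, 73.8 and 85.6 CPM in P1, at 72.4, 76.4 and 77.8 in CP1, and at 50.4, 54.2, 52.8 and 52.6 in CP2. The CP2 tumours lay below all others, by a log2 change of -0.52 ± 0.09 against P1 (adjusted p = 6.271e-04) and of -0.52 ± 0.09 against CP1 (adjusted p = 0.0011), and P1 and CP1 overlapped.

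Cat, the peroxisomal catalase, was at 93.1, 81.1 and 74.0 CPM in P1, at 67.7, 59.9 and 66.6 in CP1, and at 67.1, 68.8, 73.0 and 68.6 in CP2. The P1 tumours lay above the others, by little. Its log2 change was -0.35 ± 0.10 in CP1 (adjusted p = 0.0132) and -0.25 ± 0.09 in CP2 (adjusted p = 0.0346). The CP1 call was lost in 4 alternatives (adjusted p = 0.0512 to 0.186), CP1 replicate 2 left out among them, and the CP2 call in 6 (0.0517 to 0.34), among them the removal of P1 replicate 1 or of CP2 replicate 1, 2 or 4.

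Among NRF2 and the inducible enzymes, Nfe2l2 was called lower and Txnrd1 and Hmox1 higher in CP2 versus P1, and Nqo1, Hmox1 and Srxn1 were called higher in CP1 versus P1. Nfe2l2 was at 154, 165 and 152 CPM in P1, at 107, 164 and 134 in CP1, and at 114, 114, 112 and 106 in CP2. CP2 lay below P1 and overlapped with CP1, and the gene fell by 0.49 ± 0.12 from P1 to CP2 (adjusted p = 0.0070, and 0.0678 without P1 replicates 1 and 2). Txnrd1, the cytosolic thioredoxin reductase, was at 252, 241 and 237 CPM in P1, at 221, 266 and 264 in CP1, and at 322, 353, 336 and 345 in CP2. It was higher in CP2 than in every other tumour, by 0.48 ± 0.09 against P1 (adjusted p = 0.0013) and 0.44 ± 0.09 against CP1 (adjusted p = 0.0034).

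Nqo1, a quinone reductase widely used as a readout of NRF2 (ENSMUSG00000003849, chr8:107388225-107403206), was at 3.05, 2.00 and 2.08 CPM in P1, at 2.12, 41.8 and 29.2 in CP1, and at 1.80, 1.96, 1.37 and 1.54 in CP2. CP1 replicates 2 and 3 stood far above the other 8 tumours, and CP1 replicate 1 lay within the P1 range. The log2 change was 3.36 ± 0.79 in CP1 versus P1 (adjusted p = 0.0062) and -3.87 ± 0.74 in CP2 versus CP1 (adjusted p = 0.0022). Without CP1 replicates 2 and 3 the first turned to -0.16 (adjusted p = 0.783) and the second was -0.35 (adjusted p = 0.517), so that the Nqo1 calls rest on these tumours. Without CP1 replicate 2 alone they were 2.72 and -3.23, both still called; the first was also lost without P1 replicates 1 and 2 (adjusted p = 0.0887).

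Hmox1, the inducible heme oxygenase, was at 28.7, 25.9 and 42.1 CPM in P1, at 91.7, 82.5 and 144 in CP1, and at 48.4, 58.5, 38.5 and 68.0 in CP2. CP1 lay above both other lines, and P1 and CP2 overlapped. It rose by 1.72 ± 0.28 in CP1 versus P1 (adjusted p = 6.787e-04) and by 0.73 ± 0.26 in CP2 versus P1 (adjusted p = 0.0347), and CP2 lay below CP1 (-0.99 ± 0.25, adjusted p = 0.0102, and 0.114 without CP1 replicates 2 and 3). The CP2 versus P1 call was lost in 6 alternatives (adjusted p = 0.0506 to 0.519), among them the removal of P1 replicate 1 or 2 or of CP2 replicate 2 or 4. A list of 10 macrophage markers, cells rich in Hmox1, summed to 641 to 984 CPM in P1, 436 to 921 in CP1 and 656 to 985 in CP2. Of the 10, 2 were called higher and 0 lower in CP1 versus P1, where 22.4% of all genes were called in each direction. Cd163 was at 2.22 to 8.61 CPM in P1 and 21.6 to 57.3 in CP1, and Vsig4 at 0.0616 to 0.405 and 3.78 to 7.18. Adgre1 was at 34.4 to 46.4 CPM in P1 and 15.1 to 44.1 in CP1, and Csf1r at 89 to 138 and 49 to 139. These genes are named after their values were seen, and the part of macrophages in the Hmox1 result was not tested.

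Srxn1, which repairs over-oxidised peroxiredoxins, was at 51.8, 60.1 and 56.5 CPM in P1, at 71.6, 80.4 and 88.2 in CP1, and at 66.9, 70.4, 60.3 and 56.9 in CP2. CP1 lay above both other lines. It rose by 0.51 ± 0.11 in CP1 versus P1 (adjusted p = 0.0040, and 0.115 without CP1 replicates 2 and 3). The CP2 versus CP1 change of -0.33 ± 0.10 (adjusted p = 0.0266) was lost in 5 alternatives (0.0654 to 0.439), among them the removal of CP1 replicate 2 or 3 or of CP2 replicate 3 or 4. Over the 5 genes, CP1 versus P1 called 3 higher and 0 lower, CP2 versus P1 called 2 higher and 1 lower, and CP2 versus CP1 called 1 higher and 3 lower. All-gene shares were 22.4% in each direction, 28.3% higher and 28.4% lower, and 21.3% higher and 21.9% lower.

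Within CP1, 8 of the 40 tested genes were at least 2-fold higher in both replicate 2 and replicate 3 than in replicate 1 (20.0%, against 5.64% of all tested genes), namely Nqo1, Gpx2, Gsta1, Gsta3, Gsta4, Gstm1, Gstm4 and Gstp3. In CP1 replicates 1, 2 and 3 the uroplakins summed to 53.1, 1245 and 505 CPM, the smooth muscle list to 817, 3543 and 5221 CPM, and the luminal epithelium list to 804, 1553 and 1361 CPM, so all 3 were lowest in replicate 1. Other lists were highest there. They include the seminal vesicle and secretory prostate list (633, 33.4 and 29.7 CPM), the fibroblast list (23751, 17278 and 15284) and an adipocyte list (394, 297 and 161). Within P1, 8 of the 40 were lowest in replicate 1 and highest in replicate 3 with at least 2-fold between them (20.0%, against 3.05% of all tested genes), namely Gpx2, Gsta1, Gsta3, Gsta4, Gsto2, Gstp2, Gstp3 and Gstt4, of which Gstt4 had 2 counts in all. With at least 3 counts required in replicate 3, a rule added after seeing the data, 7 members remained (17.5%, against 2.95% of all genes), all but Gstt4; the same rule for CP1 left 8 (20.0%, against 5.4%). In P1 replicates 1, 2 and 3 the seminal vesicle list took 15.2%, 6.87% and 2.02% of counts, and the luminal epithelium list summed to 9434, 12678 and 18991 CPM. The part of these tissues in the differences was not tested. Seen per kilobase of exon, the highest levels were those of Gpx1 (495 CPM per kb), Gsta4 (208) and Gpx4 (182) in P1, of Gpx3 (1054), Gstm1 (546) and Gpx1 (333) in CP1, and of Gpx1 (313), Gpx4 (158) and Gstm2 (51.1) in CP2.

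**Figure D5:**
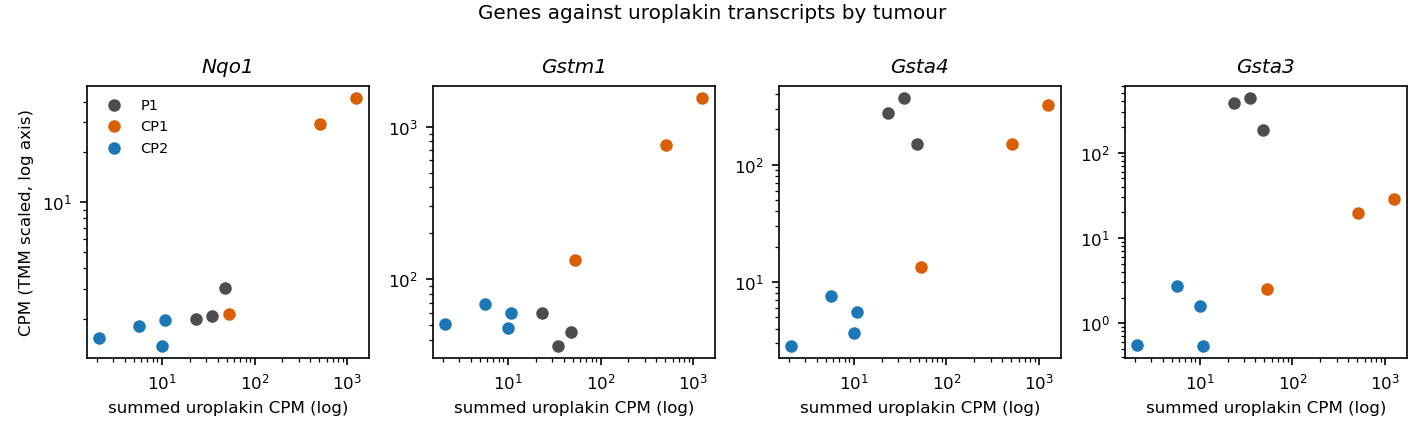
CPM of Nqo1, Gstm1, Gsta4 and Gsta3 (y axes, log) against the summed CPM of 5 uroplakin genes (x axes, log) in each tumour, coloured by line. CP1 replicates 2 and 3, at 1245 and 505 CPM of uroplakins, lie above CP1 replicate 1 for all 4 genes. That order follows from the choice of genes, all listed above as at least 2-fold higher in these replicates. The P1 tumours reach as high or higher for Gsta4 and Gsta3 at 23.4 to 48.3 CPM of uroplakins.

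Among the genes around glutathione, the cystine importer and its partner chain lay higher in both CP lines than in P1, and highest in CP2. In CP2 the 4 synthesis and reduction genes were lower than in P1. For the list counts below, all-gene shares were 28.3% higher and 28.4% lower in CP2 versus P1, and 22.4% in each direction in CP1 versus P1. Slc7a11, the cystine importer, was at 4.59, 3.90 and 4.23 CPM in P1, at 14.3, 29.6 and 18.0 in CP1, and at 196, 197, 186 and 175 in CP2. The lines did not overlap, and the log2 change was 2.28 ± 0.23 in CP1 versus P1 (adjusted p = 3.959e-05), 5.47 ± 0.26 in CP2 versus P1 (adjusted p = 4.070e-07) and 3.19 ± 0.22 in CP2 versus CP1 (adjusted p = 8.895e-06). Slc3a2, its partner chain, was at 174 to 217 CPM in P1, 350.5 to 438 in CP1 and 482 to 584 in CP2 (1.45 ± 0.12 in CP2 versus P1, adjusted p = 8.906e-06). Cbs and Cth, which make cysteine from homocysteine by transsulfuration, were lower in CP2 than in P1 (-3.10 ± 0.49, adjusted p = 4.174e-04, and -1.79 ± 0.45, adjusted p = 0.0066). Cth was at 3.54 to 7.89 CPM in P1 and 0.933 to 2.65 in CP2. Without P1 replicates 1 and 2 its change was -1.17 and was not called. Of the 13 genes of cystine and precursor supply, CP2 versus P1 called 5 higher and 3 lower, and CP1 versus P1 called 4 higher and 2 lower; the lower count in CP2 ran from 2 to 6 over the alternatives.

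Of 17 tested genes of glutathione turnover and export, CP1 versus P1 called 7 higher and 5 lower and CP2 versus P1 called 6 higher and 7 lower. Shares of all genes were 22.4% in each direction in the first, and 28.3% higher and 28.4% lower in the second. Ggt7, a member of the gamma-glutamyltransferase family, was at 4.12 to 5.14 CPM in P1, 66.1 to 83.1 in CP1 and 66.0 to 74.2 in CP2, a log2 change of 3.99 ± 0.13 (adjusted p = 1.905e-07) and 3.96 ± 0.13 (adjusted p = 1.477e-07). Ggt1, the family member that breaks down extracellular glutathione, was at 24.9 to 125 CPM in P1, 3.86 to 4.91 in CP1 and 2.14 to 5.45 in CP2 (-4.12 ± 0.57, adjusted p = 2.559e-04, and -4.30 ± 0.51, adjusted p = 7.363e-05). Among 16 genes of NADPH supply, CP2 versus P1 called 2 higher and 10 lower, and CP2 versus CP1 called 1 higher and 9 lower. The latter comparison called 21.3% of all genes higher and 21.9% lower. Me1, the cytosolic malic enzyme, was at 249.9 to 471 CPM in P1 and 63.8 to 87.3 in CP2 (-2.11 ± 0.23, adjusted p = 3.745e-05). Aldh1l2, a mitochondrial enzyme of folate metabolism, was high in CP1 alone among the lines. Its CP1 tumours were at 66.8 to 90.1 CPM, against 3.43 to 7.33 in P1 and 6.53 to 8.28 in CP2 (3.88 ± 0.26 in CP1 versus P1, adjusted p = 3.227e-06).

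Of 22 thioredoxin, peroxiredoxin and glutaredoxin genes, CP2 versus P1 called 5 higher and 9 lower. The all-gene shares in that comparison, 28.3% higher and 28.4% lower, also stand beside the counts of the NRF2 lists below. Prdx4, the peroxiredoxin of the endoplasmic reticulum, was at 16.9 to 21.6 CPM in P1, 84.2 to 124 in CP1 and 79.8 to 102 in CP2 (2.52 ± 0.17, adjusted p = 3.687e-06, and 2.32 ± 0.16, adjusted p = 2.770e-06). Prdx1, the cytosolic one, was at 622 to 1273 CPM in P1, 298 to 397 in CP1 and 297 to 353 in CP2 (-1.41 ± 0.23, adjusted p = 6.779e-04, and -1.54 ± 0.21, adjusted p = 1.599e-04). Of 15 NRF2 regulators, CP2 versus P1 called 4 higher and 2 lower; Mafg, a small Maf partner of NRF2, was at 72.4 to 82.1 CPM in P1, 119.7 to 155 in CP1 and 396 to 509.9 in CP2 (2.6 ± 0.13 in CP2 versus P1, adjusted p = 6.030e-07). Of 22 other genes known as NRF2 targets, CP2 versus P1 called 8 higher and 10 lower. The carbonyl reductase Cbr1 was at 46.5 to 82.1 CPM in P1, 10.7 to 18.0 in CP1 and 13.0 to 15.7 in CP2 (-2.28 ± 0.22 in CP2 versus P1, adjusted p = 1.924e-05). The aldehyde oxidase Aox1 was at 5.62 to 8.13 CPM in P1, 43.2 to 67.0 in CP1 and 55.0 to 62.0 in CP2 (3.15 ± 0.19 in CP2 versus P1, adjusted p = 1.142e-06).

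Among 13 tested genes of NADPH oxidases and other oxidant sources, CP2 versus P1 called 1 higher and 6 lower. For this list and the next, the all-gene shares were 28.3% higher and 28.4% lower. Nox4, an oxidase that releases hydrogen peroxide, was at 2.96 to 8.97 CPM in P1, 1.85 to 3.78 in CP1 and 43.2 to 85.3 in CP2 (3.43 ± 0.44 against P1, adjusted p = 1.138e-04). Duox2, the dual oxidase of epithelial surfaces, was at 46.0 to 100.5 CPM in P1, 0.141 to 0.682 in CP1 and at most 0.154 in CP2 (-9.43 ± 0.52 in CP2 versus P1, adjusted p = 8.281e-07). Of 9 tested relatives of the transferases, CP2 versus P1 called 2 higher and 3 lower, and the microsomal transferase gene Mgst2 was at 24.4 to 55.8 CPM in P1, 23.2 to 26.9 in CP1 and 1.03 to 2.52 in CP2 (-4.57 ± 0.33 against P1, adjusted p = 3.042e-06). In none of these lists did all called genes move in a single direction in CP2 versus P1.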

How the data were processed

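RNA-seq counts per gene were deposited by the authors for 10 orthograft tumours (P1 n = 3, CP1 n = 3, CP2 n = 4). The submitters' processing notes name GRCm38.p3, HTSeq 0.6.0, TopHat2 2.1.0 and Bowtie2 2.2.6.0 among other tools; annotation and strand setting are not given in the sources used here. Groups follow the labels' cell line. Of 47069 gene IDs, 46574 matched GENCODE M21 (GRCm38), which gave symbols and coordinates. Counts were filtered (filterByExpr, minimum count 10, minimum total 15), scaled by TMM and fitted in edgeR 4.0.16 (R 4.3.3, limma 3.58.1) with all 3 lines sharing one estimate of spread; p-values were Benjamini-Hochberg adjusted over 17644 genes and called below 0.05. A second rule tested for a change above 2-fold (glmTreat). CPM use TMM-scaled library sizes. Members with a mean of at least 5 CPM in a line were described in full, and the others by counts and ranges. The pipeline was tested on simulated data in which all genes had the same relative spread. That test does not cover genes that vary as much within a line as Nqo1 in CP1. Alternatives covered scaling, filtering, DESeq2 1.42.0, the lines fitted and left-out tumours. Members, lists and doubted libraries were chosen with earlier results of these data known. Replicate numbers were given in accession order and pair nothing. Intervals and floors cover counting error only. An item of the donors' genotype is not reported here.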

Additional observations from a re-analysis of the deposited data

Results flagged for a closer look

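In CP2, 1 tumour stood far from the other 3 for Gpx2, at 0.344 CPM, where the others held 0, 0.0456 and 0 CPM. For Gsta1, 1 CP2 tumour was at 0.103 CPM and the other 3 at 0. Both rest on a handful of counts. The 4 CP2 tumours were examined for 40 members and 2 stood out, the number that chance gives at about 1 group in 20. That rate is for smoothly varying values. It does not hold for counts this near 0, so it says nothing on these 2 genes. Groups of 3 tumours were not examined. Gpx3 moved in opposite directions against P1 in the CP lines, and the difference between CP2 and CP1 itself was a log2 change of -4.97 by edgeR's quasi-likelihood test (adjusted p = 3.011e-05).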

How the results depend on the processing

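Of 84 calls over the members and the 3 comparisons, 51 held under all 17 alternatives and 68 under every alternative that kept at least 2 tumours a line. With CP1 replicates 2 and 3 removed, members called higher in CP1 versus P1 numbered 7, members called lower in CP2 versus CP1 numbered 13, while over all genes these shares went from 22.4% to 15.2% and from 21.9% to 11.0%; Nqo1 in CP1 versus P1 (-0.16) and Gstm4 in CP2 versus CP1 (0.11) turned direction. With P1 replicates 1 and 2 removed, members called higher in CP1 versus P1 numbered 8, and the all-gene share was 19.5%. Leaving out each tumour in turn gave 12 to 14 higher and 11 to 13 lower in CP1 versus P1, 5 to 8 and 22 to 23 in CP2 versus P1, and 3 to 5 and 21 to 28 in CP2 versus CP1. The causes of these changes were not tested. No paired analysis was possible because replicate numbers follow accession order. Gpx2 and Gsta1 lie near the floor of 3 counts in CP2, and the size of their changes there rests on few counts.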
